A study of Mus musculus with 10 samples.

Results

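miR-21 was followed on both strands of its hairpin through the probes printed as mmu-miR-21 and mmu-miR-21*, 2 of the 1040 mouse miRNA probes on the array. They were picked out by the probe names alone. Both entered the test against treatment, because both of their spots were above the authors' detection threshold on at least 5 of the 10 arrays. miR-21 passed it on 10 arrays and miR-21* on 6.

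The samples were total RNA from mIMCD-3, an established line of mouse inner medullary collecting duct cells. They were grown on transwell filters to confluence, kept in hormone-free medium for 24 h and given either 100 nM aldosterone or the ethanol vehicle, with 5 samples in each group. The line, the filter culture and the hormone withdrawal are shared by both groups. The labels give neither the duration of treatment nor whether samples came from separate cultures, so the spread behind each p-value may be a technical one. In bulk RNA, fewer cells and less RNA per cell cannot be told apart. Sample titles of both groups share 5 starting codes (120P20, 1117P20, 107P19, 231 and 232), and the labels do not say what these stand for. The codes were taken here to number the replicates 1 to 5 and to pair the samples. Aldosterone is the steroid hormone that acts through the mineralocorticoid receptor to promote sodium reabsorption in the distal nephron and collecting duct.

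Blank spots averaged 17.6 to 21.5 intensity units on the arrays, and the authors kept spots down to 1.29 to 2.04 units above it. Arrays differed in overall brightness. The median log2 signal of the 243 probes detected on all 10 arrays ran from 3.24 in vehicle replicate 2 to 5.84 in aldosterone replicate 3, and it was higher with aldosterone in 5 of 5 pairs. Of 9 miRNAs listed for collecting duct epithelium, 6 were detected on all arrays, while miR-141 was detected on 1 array and miR-200c on 2. Of 6 blood cell miRNAs, 0 passed on all arrays and 4 were on no array. Of 5 fibroblast and smooth muscle miRNAs, 0 passed on all arrays and 3 were on no array, among them miR-143 and miR-145; their summed signal was 2.37 to 10.1 units with vehicle and 4.43 to 14.2 with aldosterone. The only listed marker of a foreign cell type on all arrays was the muscle miRNA miR-206. The endothelial miR-126-3p was on 9 arrays, the neuronal miR-9 on 8 and the blood miR-150 on 5. Of the fibroblast miRNAs, miR-214 was on 6 and miR-199a-5p on 4. The remaining foreign markers, the liver miR-122 included, were on at most 2. Precision is limited by having 5 arrays in a group.

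A miRNA is cut from a hairpin as a duplex of 2 strands. One strand is usually kept in an Argonaute protein, where the seed at its 5′ end pairs with target messages and lowers their output, and the other strand is mostly degraded. For miR-21 the kept strand is the 5′ arm, and the older names on the array mark the minor 3′ strand with an asterisk. miR-21 is among the most abundant miRNAs of many cultured cells. Its known targets include Pdcd4, an inhibitor of translation and of AP-1 activity. In mouse kidney it increases after ischaemia and ureteral obstruction, and it is therefore used as a marker of tubular injury and fibrosis.

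The RefSeq miRNA table (GRCm38.p6) held both strands, which match the 2 array names through the gene Mir21a. They are shown because the seeds set the target range of each strand. The hairpin lies at chr11:86584067-86584158 on the minus strand, with miR-21 at chr11:86584120-86584141 and miR-21* at chr11:86584082-86584103, within the span of the protein-coding gene Vmp1. The array files name no genome build, so these positions are RefSeq's. Capitals mark the seed, bases 2 to 8, in the mature strands, and both mature strands in the hairpin.
miR-21 (mmu-miR-21a-5p): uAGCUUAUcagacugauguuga
miR-21* (mmu-miR-21a-3p): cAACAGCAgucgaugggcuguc
Mir21a hairpin: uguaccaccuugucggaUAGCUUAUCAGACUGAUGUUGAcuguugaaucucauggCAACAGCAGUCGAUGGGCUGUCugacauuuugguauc
mmu-miR-21c: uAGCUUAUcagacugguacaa
mmu-miR-21b: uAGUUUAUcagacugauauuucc
The strands are 22 bases each, with G or C at 36.4% of bases in miR-21 and 59.1% in miR-21*. Of the 1738 mature sequences in the table, 2 carry the miR-21 seed, miR-21 itself and miR-21c, a miRNA from chr8:128278188-128278208 (minus strand) that shares its first 15 bases. miR-21b, at chr3:29636768-29636790 (plus strand), differs within the seed. The seed of miR-21* occurs in 1 sequence, its own. The array has 0 probes named miR-21b or miR-21c, and the sources used here give no probe sequences, so a contribution of these relatives to the miR-21 signal was not tested.

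miR-21 itself was bright on every array and varied widely from array to array. Above the mean of the blank spots it read 2850.1, 1118, 5616, 1153 and 982 intensity units in aldosterone replicates 1 to 5. In vehicle replicates 1 to 5 it read 2279, 159, 3039.9, 447 and 796 units. The groups overlapped, with replicates 1 and 3 high in both groups and vehicle replicate 2 lowest of all. The brightest array exceeded the dimmest 35.3-fold. Duplicate spots differed by 1.09-fold to 1.33-fold on an array, and the brightest raw spot of miR-21 read 6075 units where other spots of that array reached 49294, so the probe was not at the upper end of the scanner's range.

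Treated samples had a mean of 2344 ± 1984 units and vehicle samples 1344 ± 1251 (SD, n = 5 each). On the log2 scale the difference was 1.14, with SDs of 1.09 with aldosterone and 1.74 with vehicle. A two-sided exact permutation test of the 252 splits gave p = 0.246 (adjusted p = 0.597 over 430 probes). On this unscaled signal 97.4% of those probes were on the higher side. Leaving out single arrays mattered, since the log2 difference was 0.543 when vehicle replicate 2 was dropped, 0.733 when aldosterone replicate 3 was, and 0.72 when both samples of pair 2 were.

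Within pairs miR-21 was higher with aldosterone in 5 of 5, by 1.25-fold, 7.02-fold, 1.85-fold, 2.58-fold and 1.23-fold in pairs 1 to 5 (exact sign-flip p = 0.0625, the smallest that 5 pairs allow). Of the 243 probes detected on all arrays 116, or 47.7%, were also higher in all 5 pairs, so this count is near the background. The median probe was higher by 1.07-fold, 1.48-fold, 1.49-fold, 1.89-fold and 1.31-fold in the same pairs. Set against it, miR-21 lay above the median probe in 4 pairs and below it in pair 5. It ranked 4 of 243 in pair 2, but 42, 44, 25 and 144 in pairs 1, 3, 4 and 5.

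**Figure D1:**
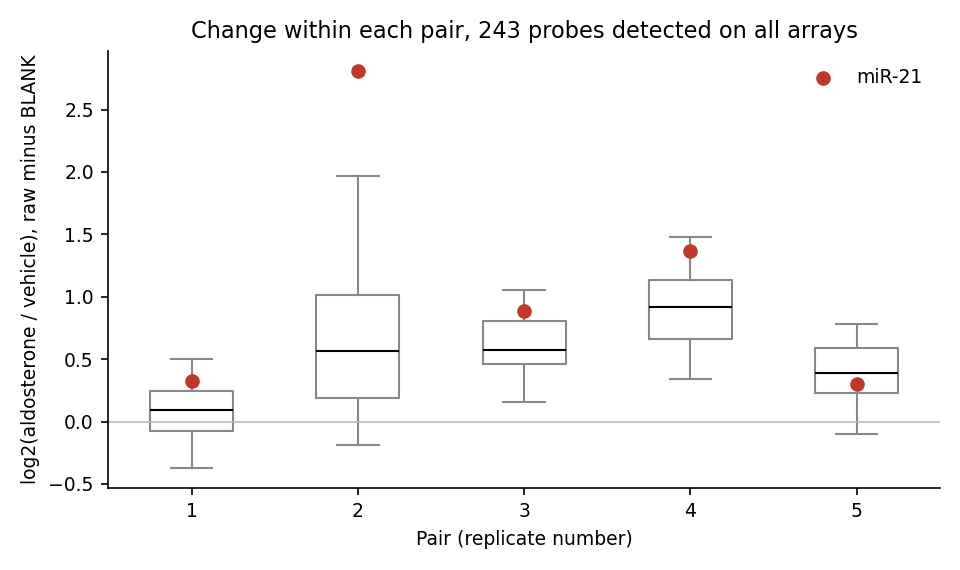
Log2 ratio of aldosterone to vehicle within each replicate pair (blank-subtracted intensity, y axis) for the 243 probes detected on all arrays; boxes span the quartiles with the median as a line, whiskers run from the 5th to the 95th percentile, and red points are miR-21. miR-21 lies above the whisker in pair 2 (log2 ratio 2.81), within the whiskers in the other pairs, and below the median in pair 5.

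After each array's median was subtracted, the log2 difference of miR-21 was 0.58 in place of 1.14 (exact permutation p = 0.341, adjusted p = 0.975), higher in 4 of 5 pairs (exact sign-flip p = 0.125). This scale was not planned beforehand. On that scale 39.8% of the 430 probes were on the higher side. Whether the brighter treated arrays held more miRNA or were read more brightly was not tested.

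The values that the authors scaled to an array median of 25 kept replicates 1 and 3 high in both groups. miR-21 stood at 18603, 8848, 24238, 8247 and 6422 in aldosterone replicates 1 to 5. It stood at 13045, 1059, 16208, 3689 and 7147 in vehicle replicates 1 to 5. The groups overlapped again, and in pair 5 the vehicle sample was now the higher, at a ratio of 0.898. Group means were 13271 ± 7753 and 8229 ± 6325 (SD, n = 5 each), with a log2 difference of 1.03 (exact permutation p = 0.246, adjusted p = 0.552 over the 336 probes with a value on every array). Without vehicle replicate 2 the log2 difference was 0.427, and without replicate 2 in both groups it was 0.525. On this scale 94.3% of the 336 probes were on the higher side.

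**Figure D2:**
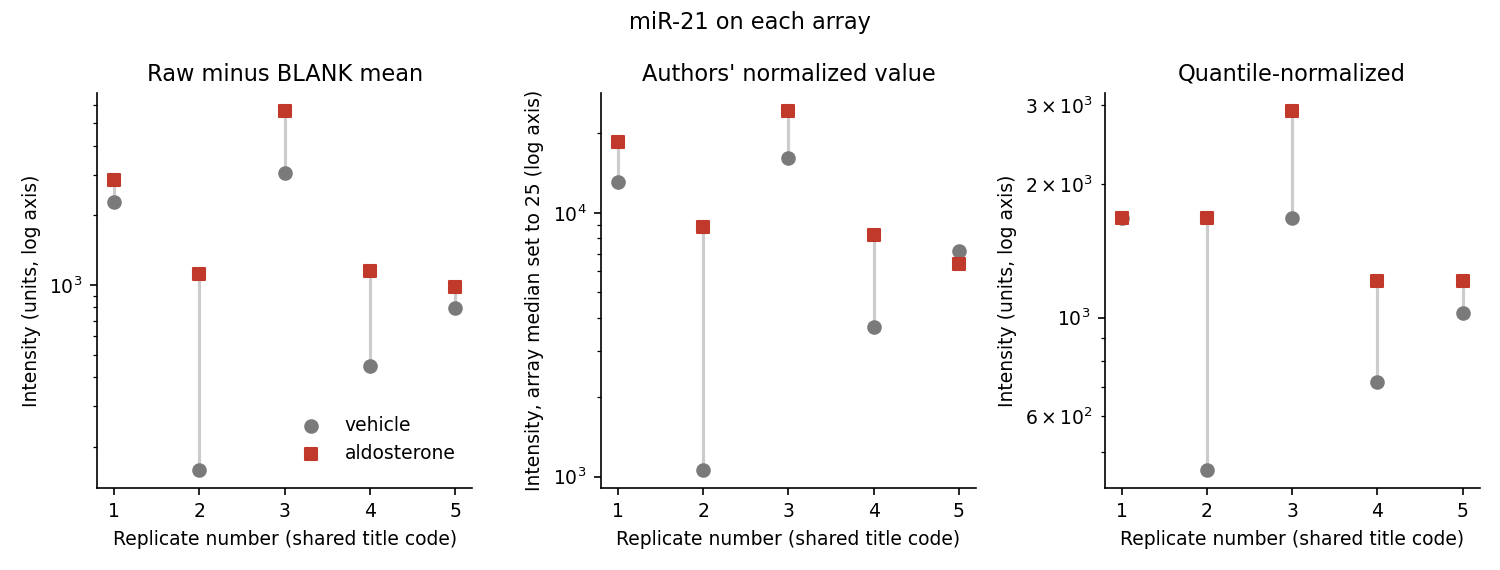
miR-21 intensity on each array (log y axes, each with its own range) as raw value minus the blank mean, as the authors' normalized value and after quantile normalization, by replicate number; gray circles are vehicle, red squares aldosterone, and lines join pairs. Vehicle replicate 2 is the lowest point in every panel, the 2 samples of pair 1 coincide after quantile normalization, and pair 5 turns over in the authors' values.

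As a share of all mouse probe signal on an array, miR-21 made up 2.20% to 5.41% with aldosterone and 0.661% to 4.32% with vehicle. Its brightness rank among mouse probes was 3 to 6 with aldosterone and 5 to 15 with vehicle, 15 being vehicle replicate 2. Rank reflects how well a probe hybridizes as well as abundance. It matters here because quantile normalization gives each array the same set of values by rank, so that miR-21 could take only 6 distinct values over the 10 arrays.

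The main comparison used background-corrected, quantile-normalized log2 values with an offset of 50, fitted for all 430 tested probes together. On that scale, with the offset taken off, miR-21 was at 1677.9, 1677.9, 2909, 1208.5 and 1208.5 units in aldosterone replicates 1 to 5. In vehicle replicates 1 to 5 it was at 1677.9, 455, 1677.9, 718 and 1026 units. Pair 1 was tied and the other 4 pairs were higher with aldosterone. The log2 change was 0.70 (SE 0.38, 95% interval -0.17 to 1.56), the highest of the 430, on a scale whose offset holds down the change of dim probes. miR-21 did not pass the threshold of 0.05 (limma adjusted p = 0.944, unadjusted p = 0.101). With the blank mean subtracted, a floor of 1 and no offset before quantile normalization, its log2 change was 0.74 and ranked 5 of 430. That setting did not pass either (limma adjusted p = 0.926). Under cyclic loess and in the authors' values the change of miR-21 ranked 2.

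With the replicate block, the change was the same 0.70 with a smaller error (SE 0.26, 95% interval 0.03 to 1.36), and it did not pass either (limma adjusted p = 0.744, unadjusted p = 0.0425). Of all tested probes 0 passed without the block and 0 with it, 0.0% in both. At an unadjusted p under 0.05 there were 8 without the block (1.86%) and 19 with it (4.42%), and miR-21 was among the 19. Exact permutation over the 430 blank-subtracted probes gave 0 past the threshold, with 11 at an unadjusted p under 0.05, and over the 336 deposited values 0 and 30. The 252 splits allow no unadjusted p under 0.00794, so a probe could pass only if many others tied near that minimum. These counts of 0 were largely set by the design.

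The size of the change depended on how arrays were scaled. The log2 change of miR-21 was 0.345 under cyclic loess, 0.509 at the 75th percentile, 0.593 for summed signal, 0.63 for the median, 0.862 for spike controls and 1.04 with no normalization between arrays. Its direction was the same in all of these settings, and none passed the threshold (limma without the block, adjusted p of at least 0.625). Under cyclic loess 3 pairs were higher and 2 lower. The share of all tested probes on the higher side was 53.0% after quantile normalization, 50.2% under cyclic loess, 13.5% at the 75th percentile, 22.1% for summed signal, 28.1% for the median, 76.5% for spike controls and 96.0% with no normalization. In the authors' values, where it was 85.6%, the median log2 change of all tested probes was 0.31, against 1.03 for miR-21.

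The change was smaller without replicate 2. Without vehicle replicate 2 the main log2 change was 0.435, and without replicate 2 in both groups it was 0.428 (limma adjusted p = 0.998). With the block as well, a fit added after seeing the data, the 4 remaining pairs gave 0.43 with a 95% interval of 0.02 to 0.84 (limma adjusted p = 0.921). Of the scalings run with the block, chosen after seeing the data, the lowest adjusted p of miR-21 was 0.111, with no normalization, and it was 0.134 in the authors' values (limma).

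**Figure D3:**
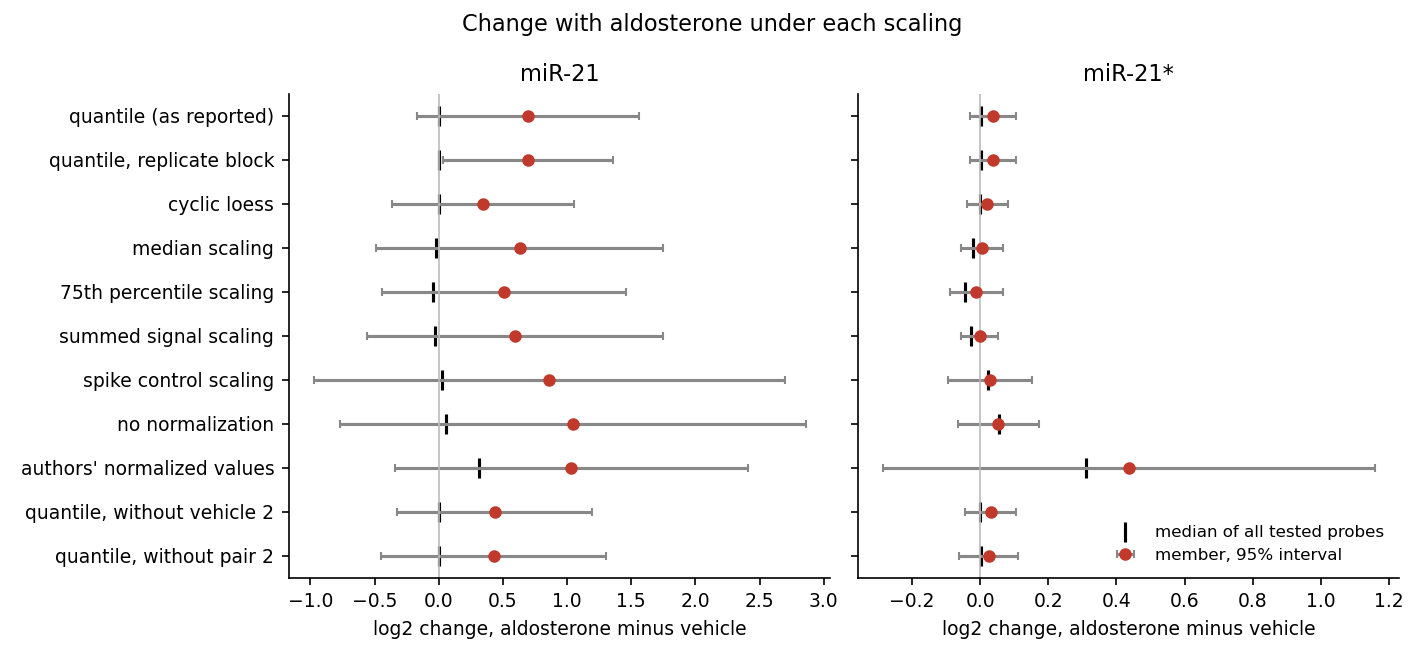
Log2 change with aldosterone (x axes, different ranges) of miR-21 and miR-21* under 11 settings (rows); red points are the fitted change with its 95% interval, and black ticks the median change of all tested probes. miR-21 lies on the higher side in every row with values from 0.345 to 1.04, and miR-21* changes side at the 75th percentile and for summed signal.

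miR-21*, the minor strand, was dim. Above the blank mean it read 5.17, 4.43, 11.7, 5.35 and 2.64 units in aldosterone replicates 1 to 5. In vehicle replicates 1 to 5 it read 7.54, 1.26, 7.10, 0.961 and 1.31 units. The groups overlapped, with vehicle replicates 1 and 3 above every aldosterone sample but replicate 3, and vehicle replicates 2, 4 and 5 close to background.

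Both spots were kept by the authors on 4 aldosterone and 2 vehicle arrays, 1 spot on 1 and 2 arrays, and no spot on 1 vehicle array, replicate 2. The mean was 5.87 ± 3.45 units with aldosterone and 3.63 ± 3.37 with vehicle (SD, n = 5 each), higher with aldosterone in 4 of 5 pairs. The log2 difference was 1.08 with a floor of 1 unit, with SDs of 0.77 with aldosterone and 1.45 with vehicle (exact permutation p = 0.167, adjusted p = 0.597). The comparison on quantile-normalized values gave a log2 change of 0.04 (SE 0.03, 95% interval -0.03 to 0.11), not past the threshold (limma adjusted p = 0.944). That scale is compressed for so dim a probe. With the blank mean subtracted, a floor of 1 and no offset before quantile normalization, the log2 change was 0.66 (95% interval -0.21 to 1.53, limma adjusted p = 0.926).

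The main log2 change of miR-21* went to 0.022 without replicate 4 in both groups and to 0.062 without replicate 1, and was 0.023 without vehicle replicate 5, 0.025 without vehicle replicate 4 and 0.06 without vehicle replicate 1. In the authors' normalized values miR-21* was at 34.0, 35.4, 50.8, 38.8 and 25.7 in aldosterone replicates 1 to 5. Vehicle replicates 1, 3, 4 and 5 were at 43.4, 38.0, 17.0 and 18.0, and vehicle replicate 2 has no value because neither spot was kept. In aldosterone replicate 5 and vehicle replicates 4 and 5 only 1 spot was kept, so the value there leaves out the dimmer spot. The kept and dropped spots read 3.89 and 1.39, 2.05 and -0.12, and 1.98 and 0.64 units above the blank mean, in that order. These values are therefore higher than both spots together would give. Without vehicle replicate 2 the comparison leaves out the array with the lowest median signal, though vehicle replicate 4, which read lower for miR-21*, stays in. The log2 difference over 5 and 4 arrays was 0.436 (exact permutation p = 0.254, not adjusted because the probe lacks a value on 1 array). It was 0.194 without replicate 4 and 0.691 without replicate 1 in both groups, and 0.221, 0.246 and 0.67 without vehicle replicates 4, 5 and 1.

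**Figure D4:**
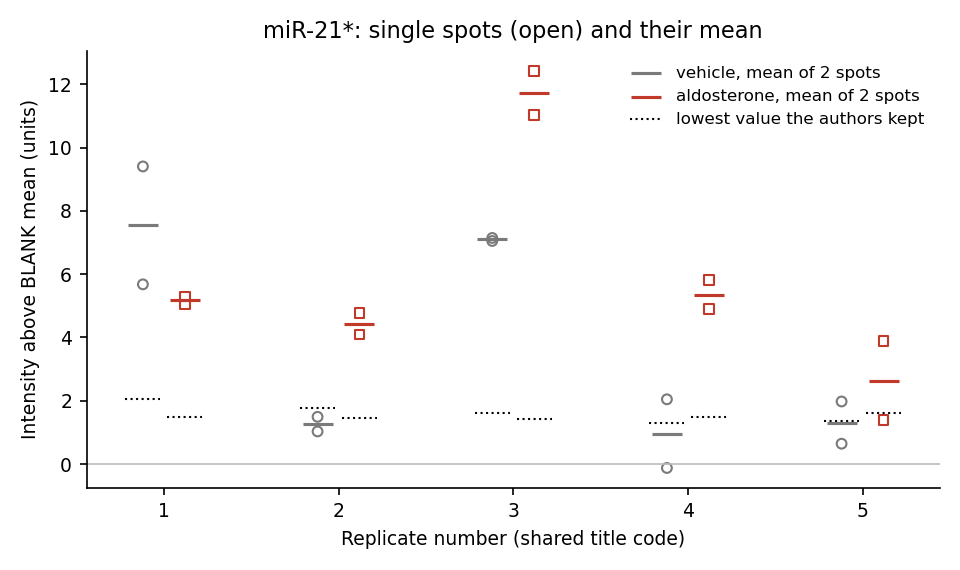
miR-21* intensity above the blank mean (y axis, units) by replicate number; open symbols are the 2 single spots, thick dashes their mean (gray vehicle, red aldosterone), and dotted lines the lowest value the authors kept on that array. Vehicle replicates 2, 4 and 5 have means of 0.961 to 1.31 units, below the dotted line, while aldosterone replicate 3 reaches 11.7.

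The difference between the strands on one array is free of any factor that multiplies the whole array, as long as both strands read above the floor of 1 unit. In vehicle replicate 4 miR-21* read 0.961 units and was set to that floor, so the factor does not cancel there. Log2 miR-21 minus log2 miR-21* was 9.11, 7.98, 8.90, 7.75 and 8.54 in aldosterone replicates 1 to 5. It was 8.24, 6.98, 8.74, 8.80 and 9.25 in vehicle replicates 1 to 5. Hybridization differs between probes, so this value compares the changes of the strands and not their amounts. Means were 8.46 ± 0.58 with aldosterone and 8.40 ± 0.87 with vehicle (SD, n = 5 each), 0.05 apart, less than either SD (two-sided exact permutation p = 0.929). The strand difference was larger with aldosterone in 3 of 5 pairs (exact sign-flip p = 0.875).

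The strand difference in vehicle replicates 2, 4 and 5 and aldosterone replicate 5 rests on a miR-21* value at or near background. Over the 6 arrays with both miR-21* spots above the threshold, a subset not planned beforehand, the difference between groups was -0.06 (4 against 2 arrays, exact permutation p = 0.867, where 15 splits allow no less than 0.0667). Without vehicle replicate 2 it was -0.302, without vehicle replicate 5 it was 0.265, and without replicate 4 in both groups it was 0.33. Across the 10 arrays the strands went together at r = 0.89 on the blank-subtracted log2 scale, a description in which they share each array's brightness. Each also followed the array median, at r = 0.92 for miR-21 and 0.87 for miR-21*, over the same 10 arrays.

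The width of the miR-21 range was itself unusual among probes. The SD of its log2 signal over the 10 arrays was 1.496, the fourth highest of the 243 probes detected on all arrays, whose median SD was 0.71. Those above it were miR-210, a miRNA induced by hypoxia (1.69), miR-29b, which targets collagen messages (1.63), and miR-429 of the epithelial miR-200 family (1.56). These 3 are named after their values were seen. After subtracting each array's median, the SD of miR-21 was 0.852 against a median of 0.363 for all 243 and again ranked 4. In the authors' values it was 1.31 against 0.479 and ranked 6 of 336.

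By likeness of pattern over the 10 arrays on the main scale, the 5 tested probes nearest to miR-21 were miR-872 (r = 0.961), miR-15a (0.935), miR-101b (0.935), miR-3068 (0.927) and miR-18a (0.918). The median r of the other tested probes was 0.071. Without scaling the same 5 had r of 0.932 to 0.986, where the median of all was 0.85, since every probe then shares array brightness. In the order given they then ranked 39, 25, 2, 74 and 5 of 429. miR-872 and miR-3068 were each detected on 8 arrays. Of the 5, miR-15a, a miRNA that restrains cell cycle genes, was at 65.1 ± 13.1 units with aldosterone and 49.5 ± 18.5 with vehicle (SD, n = 5 each). The value of miR-18a, from the growth-associated miR-17 cluster, was 56.6 ± 5.64 and 46.9 ± 17.9. Both were picked for following miR-21 over the same arrays, so a difference in the direction of miR-21 comes with the choice. miR-18a is also on the injury list below. The 5 nearest to miR-21* were miR-222* (0.879), miR-455 (0.824), miR-20a* (0.818), miR-322 (0.801) and miR-29b-2* (0.777), of which only miR-322 was detected on all arrays. These correlations describe 10 arrays that come in pairs, and the dim probes among them carry spot noise.

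Other miRNAs linked with kidney injury and fibrosis were read from a list of 23 names on 22 probes, of which 14 were tested. Of these 12 were on the higher side with aldosterone, 2 (miR-192 and miR-146a) on the lower, and 0 passed the threshold in either direction, as for 0.0% of all tested probes. The share on the higher side was 85.7% for the list and 53.0% for all tested probes. The list sets no direction that a member takes in injury, so a higher value is not an injury-like one by itself. Family members such as miR-29a, miR-29b and miR-29c were counted separately. Whether the list shifted as an injury pattern was not tested. The median log2 change was 0.09 for the list and 0.003 for all 430.

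Among the 8 brightest members detected on all arrays, log2 changes ran from 0.05 for miR-210 (SE 0.25) to 0.52 for miR-29b (SE 0.32). Between them were miR-34a, a p53 target, at 0.09 (SE 0.09), miR-29a at 0.08 (SE 0.13), miR-200b at 0.11 (SE 0.19), miR-18a at 0.16 (SE 0.12), miR-200a at 0.26 (SE 0.20) and miR-30a at 0.35 (SE 0.29). Each had a limma adjusted p of 0.944 to 0.959. miR-214, a miRNA linked with kidney fibrosis, was detected on 6 arrays. On the quantile-normalized scale it was at 5.78 ± 0.41 units with aldosterone and 5.07 ± 0.74 with vehicle. Its mean above the blank spots over all arrays was only 2.73 units. The probe shared by miR-199a-3p and miR-199b was detected on 0 arrays. miR-223, a marker of neutrophils, was likewise detected on 0. miR-590-5p is not on this list. The RefSeq table used here does not hold it, so its seed could not be compared with that of miR-21. It was detected on 0 arrays and read -1.52 to 1.84 units after the blank mean was subtracted.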

How the data were processed

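miRNAs were measured on 10 single-colour arrays from 500 ng of Hy5-labelled total RNA, 5 aldosterone and 5 vehicle. An array has 3136 spots with a raw intensity, of which 778 are blank, and each probe has 2. By their deposited note, the authors took off the blank average from each intensity, kept spots over it by 2 SD, averaged duplicates and scaled each array's median to 25. On all 10 arrays the lowest kept spot lies less than 2 SD of all blank spots above their mean, so the threshold used was lower than that SD gives; detection here follows the spots the authors kept. The deposited series table held these normalized intensities again (6454 compared, largest difference 0) on a linear scale, with column medians of 25. The sources used here name no scanner and no genome build.

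From the raw intensity, normexp background (offset 50), log2, averaging of duplicate spots and quantile normalization were run (R 4.3.3, limma 3.58.1). The 4 spots with a flag in the files were left out. Probes with both spots kept on at least 5 arrays were tested, 430 of 1040, by limma with Benjamini-Hochberg adjustment. Blank-subtracted values (floor of 1 unit before log2) and the authors' values were compared by exact permutation tests, also run on every probe.

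The numbers were taken to pair the samples: deviations from the group mean had r of 0.202 to 0.814 in the 5 pairs, and for 9 of 10 arrays the best match was the partner. The pairing comes from the shared codes of the titles. The members and lists were chosen with earlier results of these data known. Named miRNAs include the members, the 5 probes most correlated with each, and the tested members of the injury list, with values for up to 8 of those detected on all arrays.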

Additional observations from a re-analysis of the deposited data

How the results depend on the processing

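Over 8 results and 201 alternatives, 192 kept their direction and their side of the threshold, 9 turned in direction and 0 crossed the threshold. Not all of them could cross. Exact sign-flips allow no p under 0.0625 over 5 pairs or 0.125 over 4, and the 15-split strand test none under 0.0667. Adjusted permutation tests could pass only if many probes tied near their smallest p. The count of probes past the threshold, among the 8 results, comes from the same limma fits as the members. miR-21 kept its direction in all 35 alternatives of the limma comparison, at 0.428 to 0.879 when arrays or pairs were left out. miR-21* turned to -0.011 at the 75th percentile and to -0.00100 for summed signal, without the replicate block and with it; its change lies near 0 on this compressed scale. The strand difference turned to -0.0563 over the arrays with both miR-21* spots kept, and ran from -0.302 to 0.265 when single arrays were left out and from -0.183 to 0.33 when pairs were, with -0.150 without pair 1. The replicate block took the number of probes at an unadjusted p under 0.05 from 8 to 19 and changed no call. With the block and no normalization between arrays, chosen after seeing the data, it was 160 of 430, with 96.0% of probes on the higher side. The cause of these shifts was not tested. Signal over background limits miR-21*, which was within 1.31 units of the blank mean on 3 vehicle arrays.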
